A study of Drosophila melanogaster with 2 samples.

Results

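The regions described here were divergent promoters bound by CG4854-eGFP, that is, pairs of genes on opposite strands whose transcription start sites (TSSs) lay close together with a peak beside them. Members were chosen from the 3106 peaks on the dm6 build that the authors kept after a test of how well ranks repeat between replicates (irreproducible discovery rate, IDR). A peak was a member when its summit, the position of highest signal, lay within 500 bp of the nearest protein-coding TSS and the gene at that TSS had a protein-coding neighbour, transcribed away from it, with a TSS within 500 bp. This gave 684 members of the 3106 peaks when the partner could face any start of the gene. At 590 of them the partner faced the start nearest the summit, and tests were run on these 590, called nearest-start members. At the other 94 the partner faced another start of the same gene.

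Binding was measured by chromatin immunoprecipitation and sequencing in 1 group of 2 biological replicates, numbered 3 and 2. Each was made from whole Drosophila melanogaster embryos of 0 to 24 hours, males and females pooled, from a stable transgenic line in which CG4854 carries eGFP at its C terminus. Sonicated chromatin was recovered with an antibody against GFP. There was no second condition, and the files hold peaks from all embryonic cell types and stages together.

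CG4854 belongs to the ZAD zinc finger genes, which in insects encode a large family of DNA-binding proteins. A divergent promoter serves genes on both strands from one stretch of open chromatin, and in flies many such pairs are housekeeping genes. Housekeeping promoters in flies are known for the DRE, bound by the factor Dref, and for the core recognised by the insulator protein BEAF-32, which lies within the DRE.

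The sequences that bear on the results are given for 101 bp around 6 summits, read 5′ to 3′ on the plus strand of Release 6 (dm6), with signals in the peak caller's own units. Chro/Ssl1 had the highest signal of the 590, at 712.3 in replicate 2 and 527.8 in replicate 3. RpS25/CG4820 was the strongest with a DRE (110.8 in replicate 2 and 140.4 in replicate 3). Ilk, Su(dx) and prd1 lay beside strong peaks with GTTGGCAA, the only 8-base sequence called in the main comparison of summits with weak candidates. The strongest member on X, mus101, held GTTGGCAA too. Capitals mark that sequence or its reverse complement TTGCCAAC, the DRE (TATCGATA), the BEAF-32 core (CGATA) and the TATA box (TATAAA).
Chro/Ssl1, chr3L:22878860-22878960: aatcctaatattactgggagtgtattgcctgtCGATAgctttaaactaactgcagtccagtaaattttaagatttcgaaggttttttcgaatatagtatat
RpS25/CG4820, chr3R:11216291-11216391: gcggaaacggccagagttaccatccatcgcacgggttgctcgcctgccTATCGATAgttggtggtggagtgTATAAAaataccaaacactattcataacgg
Ilk/Trmt112, chr3L:21216844-21216944: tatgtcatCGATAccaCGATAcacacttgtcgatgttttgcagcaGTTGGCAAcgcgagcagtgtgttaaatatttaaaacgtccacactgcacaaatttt
Su(dx)/lectin-22C, chr2L:2037583-2037683: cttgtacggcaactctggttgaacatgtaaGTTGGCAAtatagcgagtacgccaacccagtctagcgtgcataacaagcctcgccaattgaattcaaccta
prd1/HisCl1, chr3R:11786810-11786910: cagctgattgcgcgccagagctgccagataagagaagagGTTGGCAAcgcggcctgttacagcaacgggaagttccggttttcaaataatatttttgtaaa
mus101/Mrgn1, chrX:13722128-13722228: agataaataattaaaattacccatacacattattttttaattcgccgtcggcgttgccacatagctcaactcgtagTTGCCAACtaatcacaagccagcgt

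Divergent pairs were bound more often than promoters without a partner. An IDR summit lay within 500 bp of either start at 561 of 1848 divergent pairs (30.4%, 95% exact interval 28.3 to 32.5), against 988 of 10130 genes without a divergent partner (9.75%, 9.18 to 10.3). The odds ratio was 4.03 (95% interval 3.58 to 4.54; two-sided Fisher's exact test, adjusted exact p = 7.86e-106 over 6 comparisons). In replicate 3, using its 3106 strongest candidates, 27.3% of pairs and 10.2% of single genes were bound, and in replicate 2, 33.2% and 9.62%. A pair spans more sequence than a single promoter, and per 100 kb of window there were 24.6 bound pairs and 7.78 bound single genes. A pair also counts as bound through the promoter of either gene, which raises its share, and no test allowed for this. Among pairs and genes with any candidate in the pooled list, a comparison added after seeing the data, the odds ratio was 2.25 (adjusted exact p = 2.56e-33). These tests count positions in 1 set of peaks, and pairs, genes and peaks are not biological replicates.

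The strongest nearest-start members lay at genes of varied function. Chro, which encodes the chromatin protein Chromator, shared the first with Ssl1, which encodes a subunit of the transcription factor TFIIH (signal 1237.6; 3L, 22878685 to 22879133). Art3, an arginine methyltransferase gene, and mRpS10, for a mitochondrial ribosomal protein, shared the next (1116.2; 609.6 in replicate 2 and 505.8 in replicate 3). Tcs5 and CHMP2B, which encodes a subunit of the membrane-remodelling ESCRT machinery, had 1073.2 (609.9 and 465.9 in replicates 2 and 3). CenG1A and mRpS23 had 981.3 (502.4 and 477.8), CG9147 and the F-box gene Fbw5 974.7 (503.6 and 466.4), and CG7601 and the complex I assembly factor gene CIA30 851.7 (462.0 and 385.6). Both replicates held these summits within 32 bp of the pooled summit. CG6236 shared its peak with ea, the easter protease of dorsoventral patterning (815.7), mRpL23 with CG9004 (777.9), and park, the fly parkin gene, with Targ3 (775.6).

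Further down the 25 strongest were CG11309/CG7632 (756.2), CG5611/Mtl (755.7), tank/CG12194 (754.9), Pdrg1/Pal1 (753.2) and SelR/Tsp86D (722.3). Lon, for a mitochondrial protease, shared a peak with PIG-F, for an enzyme of GPI anchor synthesis (713.1). Shc, an adaptor of receptor tyrosine kinases, shared one with Atat, a tubulin acetyltransferase gene (712.3). CG8320/Pex11ab (697.2), CG8360/CG8372 (692.6), eIF3b/Patronin (670.7) and CG8569/CG8818 (669.1) came next. The last were CG3552/CG3437 (657.1), SLIRP2/Mkk4 (655.5), Ilk/Trmt112 (649.2), Mnat9/CG1792 (642.6) and Su(dx)/lectin-22C (622.4). All 25 ranked 82nd or better in replicate 2 and 120th or better in replicate 3, and 5 of the 25 had the higher signal in replicate 3. Their summits lay at most 164 bp from the nearest start, and 16 of the 25 lay between both starts. None of the 25 was on X or chromosome 4, which held 46 and 1 of all 590 nearest-start members.

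**Figure D1:**
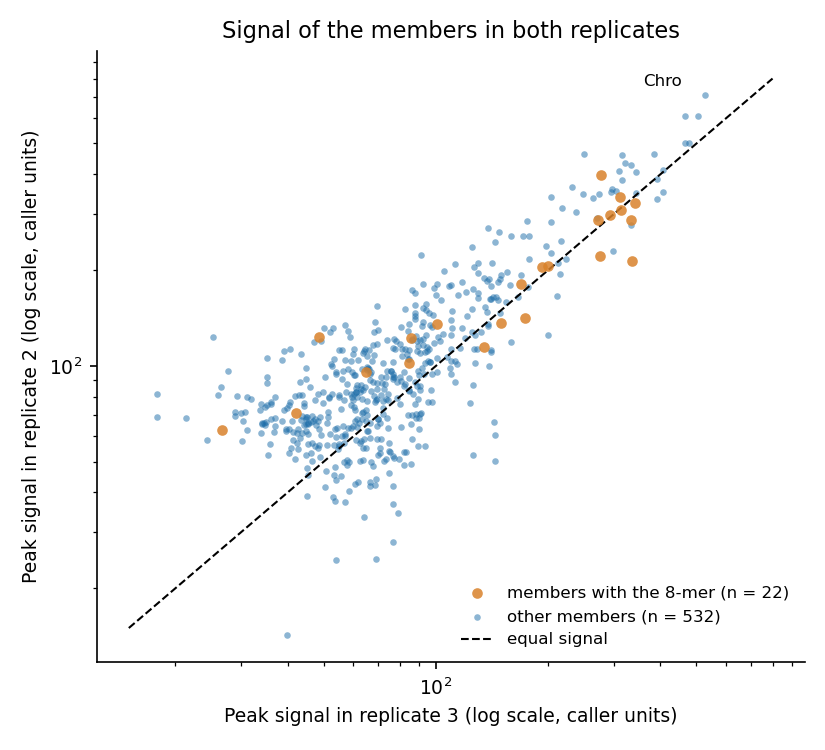
Peak signal in replicate 3 (horizontal, log scale) and replicate 2 (vertical, log scale) for the 554 nearest-start members with a candidate summit within 100 bp in both replicates, in the caller's units; each point is a member and orange points hold GTTGGCAA. Most points lie above the dashed line of equal signal, and replicate 3 over replicate 2 had a median log2 ratio of -0.33; the lists are not scaled to each other.

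Pooled signals of the 590 lay between 95.3 and 1237.6 (median 156), against 95.3 and 1775.6 (median 145) at the 1003 bound promoters without a divergent partner. The signal was in the upper part of the IDR set, split at its median rank, at 336 of 590 members (56.9%) and 497 of 1003 other bound promoters (49.6%; odds ratio 1.35, 95% interval 1.10 to 1.65, two-sided Fisher's exact test, adjusted exact p = 0.0100). Within the 1553 strongest peaks, split again at their median rank, the odds ratio was 0.793 (adjusted exact p = 0.157). Candidates in both replicates within 100 bp were found at 554 of 590 members (93.9%) and 948 of 1003 other bound promoters (94.5%), with an odds ratio of 0.893 (95% interval 0.579 to 1.38, two-sided Fisher's exact test, adjusted exact p = 0.655). Such matches are favoured by the way the IDR set was made. Of the 590, 19 lacked such a candidate in replicate 2 and 19 in replicate 3. Over the 554 with both, log2 signals correlated with a Pearson r of 0.783 and a Spearman coefficient of 0.689, as a description, and the median absolute log2 ratio was 0.43, against 0.36 at other bound promoters.

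The 94 members whose partner faced another start had signals of 96.4 to 1291.5 with a median of 149. They were led by px (1291.5), the tropomyosin gene Tm1 (874.3), gish, a casein kinase gene (617.5), PAN3, for a subunit of an mRNA deadenylase (540.4), and Adck1 (525.1). Their summits lay upstream of the nearest start at 80 of 94 (85.1%), at a median of -187.5 bp.

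Spacing between the starts ran from 8 to 498 bp among the 590, with a median of 264 bp. The closest pair was CG17260/SerRS, for seryl-tRNA synthetase (8 bp; signal 288.5), and the widest was Pax/Alp12, with the gene for the focal adhesion protein paxillin (498 bp; 331.4). Just outside the 500 bp limit, a peak at Ptpmeg had its partner at 502 bp. By spacing class, the share of pairs bound was 24.3% at 1 to 100 bp (99 of 408), 22.6% at 101 to 200 bp (75 of 332) and 42.3% at 201 to 300 bp (213 of 503, 95% exact interval 38.0 to 46.8). At 301 to 400 bp it was 31.2% (114 of 365) and at 401 to 500 bp 25% (60 of 240). The class at 201 to 300 bp had the highest share in replicate 3 (37.2%) and in replicate 2 (45.7%) as well. It was picked out after the shares were seen, and it was not tested against the others.

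The comparison written for spacing split pairs at 250 bp. Of pairs over 250 bp, 294 of 888 were bound (33.1%), against 267 of 960 at up to 250 bp (27.8%; odds ratio 1.28, 95% interval 1.05 to 1.57, two-sided Fisher's exact test, adjusted exact p = 0.0226). The call was lost without replicate 2 (odds ratio 1.01, adjusted exact p = 0.917), with the 1553 strongest peaks (1.15, 0.327) and without histone gene pairs (1.21, 0.0804), an alternative added after seeing the data.

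**Figure D2:**
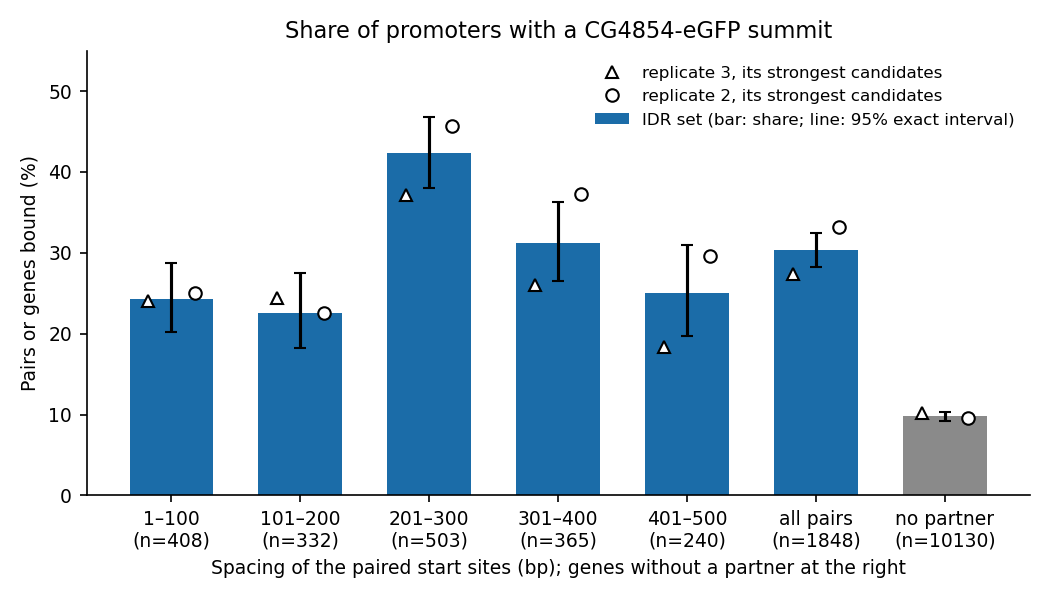
Share of divergent pairs bound (percent, vertical) by spacing of their starts, for all 1848 pairs, and for 10130 genes without a partner; bars are the IDR set with 95% exact intervals, triangles replicate 3 and circles replicate 2. Pairs spaced 201 to 300 bp had the highest share in the IDR set (42.3%) and in each replicate, and every class of pairs lay above the genes without a partner (9.75%).

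Summits at nearest-start members lay mostly in the gap between the genes. At 473 of 590 (80.2%, 95% exact interval 76.7 to 83.3) the summit was between both starts, against 601 of 1152 weak candidates at divergent promoters, that is, entries of the pooled list that overlapped no IDR peak (52.2%, 49.2 to 55.1). The odds ratio was 3.71 (95% interval 2.94 to 4.68, two-sided Fisher's exact test, adjusted exact p = 5.02e-31). A summit upstream of its nearest start lies between both starts here, because the partner's start would otherwise be nearer. The share between starts therefore nearly repeats the share upstream (471 of 590). That share was also high at bound promoters without a divergent partner (843 of 1003, 84.0%). Of the weak candidates, 31 lay at pairs that already held an IDR summit, where the rule of no overlap keeps them off that peak, and 4 of these 31 were between the starts. Without them, an alternative added after seeing the data, the share was 597 of 1121 (53.3%) and the odds ratio 3.55 (95% interval 2.81 to 4.48, adjusted exact p = 1.21e-28). By the summits of the single replicates the share of members was 80.7% (461 of 571) in replicate 2 and 77.9% (445 of 571) in replicate 3. The summit lay within 50 bp of the midpoint at 249 of 590 members (42.2%) and 281 of 1152 weak candidates (24.4%). Summits of the members moved by a median of 30 bp between replicates, and those of the 507 weak candidates found in both by 44 bp; the part of this in the difference was not tested.

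The gap itself limits where a summit can lie. At spacings of 1 to 100 bp, 27 of 81 members (33.3%) and 67 of 225 weak candidates (29.8%) had it between the starts. At 201 to 300 bp these were 204 of 229 members (89.1%) and 162 of 279 weak candidates (58.1%), and at 401 to 500 bp 63 of 68 members (92.6%) and 130 of 238 weak candidates (54.6%). Art3/mRpS10, with a spacing of 257 bp, had its summit 116 bp upstream of Art3 and 141 bp from mRpS10. At Chro/Ssl1, with 105 bp between the starts, the summit lay 74 bp inside Chro, and at park/Targ3, with 62 bp, it lay 2 bp inside park. Of the 590 peaks, 245 (41.5%) spanned both starts. Whether a peak does so depends on its width in the list (median 374.5 bp) and on the spacing, and no comparison was made.

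**Figure D3:**
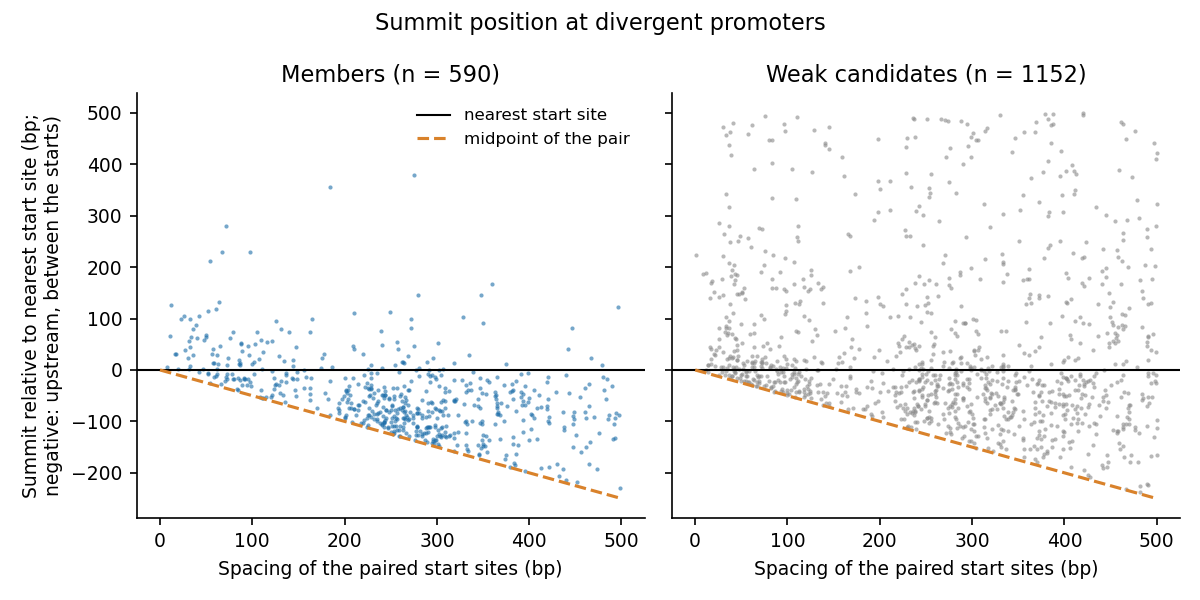
Summit position relative to the nearest start (bp, vertical, negative upstream) against the spacing of the paired starts (bp, horizontal) for 590 nearest-start members at the left and 1152 weak candidates at the right; each point is a peak. Members gather between the solid line of the start and the dashed line of the midpoint (473 of 590), while weak candidates also spread into the genes (601 of 1152 lie between the starts).

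Relative to the nearest start alone, 471 of 590 members (79.8%) and 843 of 1003 other bound promoters (84.0%) had the summit upstream (odds ratio 0.751, 95% interval 0.578 to 0.977, two-sided Fisher's exact test, adjusted exact p = 0.0413). At members this is nearly the same measure as a summit between both starts (473 of 590). The median offset was -57.5 bp at members and -115 bp at other bound promoters, and the partner's start limits the distance at members. The call was lost without replicate 2 (odds ratio 0.946, adjusted exact p = 0.794) and under 3 of the other alternatives (adjusted exact p of 0.0803 to 0.101). With the 1553 strongest peaks the odds ratio was 0.423 (adjusted exact p = 2.57e-05).

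Pairs on X were bound less often than pairs elsewhere. On X, 44 of 279 divergent pairs were bound (15.8%, 95% exact interval 11.7 to 20.6), against 517 of 1569 on all other arms (odds ratio 0.381, 95% interval 0.272 to 0.535, two-sided Fisher's exact test, adjusted exact p = 1.26e-08 over 6 arms). In replicate 3 the share on X was again 44 of 279, against 461 of 1569 on other arms, and in replicate 2 it was 57 of 279 (20.4%), against 557 of 1569. Genes without a partner were bound at 9.45% on X (154 of 1630) and at 9.81% on the other arms (834 of 8500). Pooled candidates of any strength lay at 78.1% of pairs on X and 73.4% of pairs on other arms. The odds ratio of pairs over single genes was lower on X than on the other arms, by a ratio of 0.397 (95% interval 0.271 to 0.583, likelihood ratio test of an interaction term over n = 1848 pairs and n = 10130 genes, p = 9.31e-07), a test chosen after the shares by arm were seen.

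The 46 nearest-start members on X had signals of 97.3 to 560.3 with a median of 146. They were led by mus101, a DNA replication and repair gene, with Mrgn1 (560.3), and included hop, the Janus kinase gene, with Tim8 (312.3), and the complex I gene ND-24 with corolla (242.4). Arms 3L (128 of 362 pairs, 35.4%) and 3R (166 of 477, 34.8%) stood above the other arms (odds ratios 1.33 and 1.32, adjusted exact p = 0.0438 each, Fisher's exact test, two-sided). Both calls were lost without replicate 2 (odds ratios 1.15 and 1.30, adjusted exact p of 0.586 and 0.0822), and that for 3R without replicate 3 (1.23, adjusted exact p = 0.126). Both were also lost with the 1553 strongest peaks and without histone gene pairs. Arms 2L (32.4%) and 2R (28.9%) did not pass, nor did chromosome 4, where 1 of 7 pairs was bound.

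**Figure D4:**
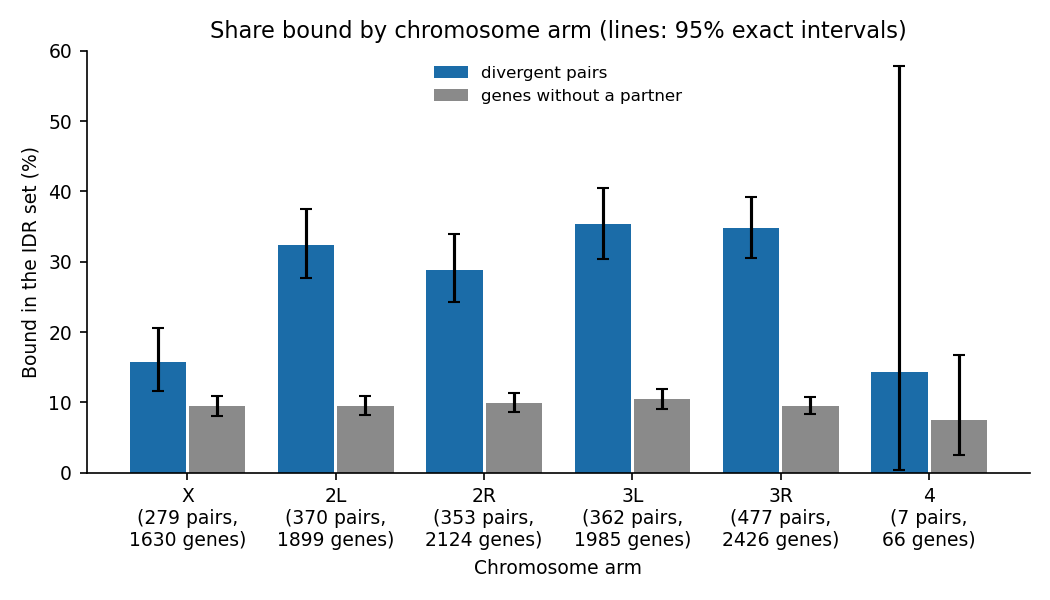
Share bound in the IDR set (percent, vertical) for divergent pairs (blue, left bar) and genes without a partner (grey, right bar) on each chromosome arm, with 95% exact intervals and the numbers of pairs and genes under each arm. Pairs on X were bound at 15.8% and pairs on 2L, 2R, 3L and 3R at 28.9% to 35.4%, while genes without a partner stayed between 7.58% and 10.4% on all arms.

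Gene lists are described by counts beside all genes in divergent pairs, of which 30.4% lay in a bound pair (1122 of 3696). Of all genes without a partner, 9.75% were bound (988 of 10130). The lists were chosen with earlier results of these data known, and no test was run on them. Of 93 genes for cytosolic ribosomal proteins, 36 lay in divergent pairs and 27 of the 36 were in bound pairs (75%), while 33 of 56 without a partner were bound (58.9%). RpS27, paired with the nucleoporin gene Nup37, had 277.3 in replicate 2 and 333.8 in replicate 3 (pooled 610.2). RpL7/Ripalpha had 229.3 and 298.7 (546.6) and RpL34b/CG8132 238.9 and 197.0 (438.1) in replicates 2 and 3. RpS27 and RpL7 were higher in replicate 3 and RpL34b in replicate 2.

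Mitochondrial ribosomal protein genes lay in divergent pairs at 53 of 73, with 18 of the 53 in bound pairs (34.0%), against 2 of 20 without a partner. Beside mRpS10, mRpS23 and mRpL23, the fourth by signal was CG15435/mRpL27 (303.7). Translation factor genes were in bound pairs at 7 of 20 (35.0%), led by eIF3b (670.7), CG18428/eIF4EHP (297.5), RpL28/eIF1 (264.9) and eIF3h/senju (232.0). Proteasome genes were in bound pairs at 8 of 24 (33.3%), led by Hat1/Rpn5 (235.2), Rpn3/l(2)37Bb (176.8), RanBP3/Rpt5 (168.0) and Rpn6/ave (142.7). Oxidative phosphorylation genes had 11 of 39 (28.2%), led by COX5A, a cytochrome c oxidase subunit gene, with glo (587.5), ND-51 (254.5), ND-24 (242.4) and TppII/ND-MWFE (240.6). Aminoacyl tRNA synthetase genes had 5 of 22 (22.7%), led by SerRS (288.5), GluProRS (228.7), ThrRS (204.7) and IleRS (175.4). These shares lay around that of all paired genes.

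Polycomb and Trithorax group genes, which keep genes silent or active, were in bound pairs at 6 of 11. Those without a partner were bound about as often, at 7 of 14. brm, for the ATPase of a chromatin remodelling complex, shared its peak with Arl1 (315.4; 223.2 in replicate 2 and 91.0 in replicate 3), and Sfmbt with CG5439 (196.6). E(z), for the histone methyltransferase of Polycomb repression, shared one with Cnep1r2 (166.4). Insulator and architectural protein genes had 4 of 7 in bound pairs, and 3 of 11 without a partner were bound. The paired ones included Chro (1237.6), Cp190/CG4338 (341.0) and Dref/RpL13, at which the gene for the DRE-binding factor faces a ribosomal protein gene (279.3). Cell cycle and replication genes had 5 of 19 (26.3%), led by dpa, for a subunit of the replicative helicase (213.0), dup (179.1), Art1/Mcm5 (139.2) and Cdk1/mRpS7 (131.0). Cdk1/mRpS7 had 65.1 in replicate 3 and no candidate summit within 100 bp in replicate 2. The ZAD list held only genes known beforehand to lie at peaks, so its 5 of 5 is no result: CG1792 (642.6), CG10147 with Bulli (448.1), CG4820 (251.4), and CG14711 with Zaf1 (178.8; 123.0 in replicate 2 and 25.2 in replicate 3). None of 16 paired chemoreceptor genes and none of 2 paired cuticle protein genes was in a bound pair. With 0 of 16, a share of up to 18.8% is allowed by the rule of 3 counts.

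The next comparison asked which known elements lay within 50 bp of the summits. The DRE was more frequent at nearest-start members, at 42 of 590 (7.12%) against 35 of 1003 other bound promoters (3.49%; odds ratio 2.12, 95% interval 1.34 to 3.36). The BEAF-32 core CGATA lay at 176 of 590 (29.8%) against 228 of 1003 (22.7%; odds ratio 1.45, 95% interval 1.15 to 1.82); both had an adjusted exact p of 0.0102, and the DRE contains this core. GAGAG, the sequence bound by GAGA factor, was rarer at members, with 34 of 590 (5.76%) against 121 of 1003 (12.1%; odds ratio 0.446, adjusted exact p = 0.000540). So was the E-box CATATG, with 11 of 590 (1.86%) against 44 of 1003 (4.39%; odds ratio 0.414, adjusted exact p = 0.0274). These 4 of 16 motifs passed, by Fisher's exact test, two-sided, adjusted over the 16. The mean GC content of the windows was 35.0% (SD 9.19) at members and 38.1% (SD 9.71) at other bound promoters, and its part in the differences was not tested.

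The calls depended on the peak set and on the windows. With the 1553 strongest peaks none of the 16 passed by Fisher's exact test, with 2 at an unadjusted p under 0.05, and GAGAG had an odds ratio of 0.686 (adjusted exact p = 0.516) and the DRE 1.80 (0.467). Without replicate 3 only GAGAG passed; the DRE then had an odds ratio of 1.64 (adjusted exact p = 0.109), the BEAF-32 core 1.33 (0.0643) and CATATG 0.450 (0.0643). Without replicate 2 CATATG was lost (0.493, adjusted exact p = 0.148). With a TSS window of 250 bp the DRE (1.74) and the BEAF-32 core (1.31) missed the threshold, each with an adjusted exact p of 0.161, and with sequence windows of 25 bp they had adjusted exact p of 0.167 and 0.327. CATATG was lost in both settings (adjusted exact p of 0.249 and 0.167). With partners up to 1000 bp the DRE (adjusted exact p = 0.0721) and CATATG (0.0799) were lost, and with a partner at any start the BEAF-32 core (0.175). The other motifs that did not pass were the TATA box TATAAA (20.0% against 16.4%), the initiator TCAGT (16.6% against 18.0%), Ohler motif 7 CAGCNCT (10.5% against 9.07%), the E-box CAGCTG (6.78% against 5.48%) and Ohler motif 6, GTATATTT or GTATTTTT (5.42% against 4.39%). Below them were the pyrimidine-rich TCT initiator, CTTTTTC or CTTTTCC (4.75% against 4.29%), Pho GCCATNNT (3.90% against 4.69%), Ets CCGGAA (3.73% against 3.39%) and M1BP GGTCACAC (2.20% against 2.99%). Zelda CAGGTAG, E2F, as GGCGGGAA or GGCGCGAA, and the E-box CACGTG lay at 0.339%, 0.678% and 0.508% of members. Calls were also gained under alternatives, by the same two-sided Fisher's exact test. With summit windows of 100 bp TATAAA (odds ratio 1.43, adjusted exact p = 0.00620), Ohler motif 7 (1.47, 0.0125) and CAGCTG (1.54, 0.0125) were called as more frequent at members. CAGCTG was also called without replicate 2 (1.71, adjusted exact p = 0.0252). All motifs were sought on both strands, and a match is a description of the letters only.

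The same motifs were compared between bound and unbound pairs, in windows of 100 bp on either side of the midpoint, which the annotation alone placed. M1BP was the only one called, and it was rarer, at 21 of 561 bound pairs (3.74%) against 111 of 1287 unbound pairs (8.62%; odds ratio 0.412, 95% interval 0.256 to 0.664, two-sided Fisher's exact test, adjusted exact p = 0.00179). The call was lost with windows of 150 bp (odds ratio 0.765, adjusted exact p = 0.309), where Ohler motif 7 was called instead as more frequent in bound pairs (1.63, adjusted exact p = 0.00160). With windows of 50 bp the BEAF-32 core was also called, as rarer in bound pairs (odds ratio 0.689, adjusted exact p = 0.0192), and without replicate 3 the initiator was (0.640, adjusted exact p = 0.000807). The DRE lay at 61 of 561 bound pairs (10.9%) and 139 of 1287 unbound pairs (10.8%), with an odds ratio of 1.01 (95% interval 0.733 to 1.39). The mean GC content of these windows was 33.1% at bound and 34.8% at unbound pairs, and its part in the calls was not tested.

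Weak candidates at divergent promoters gave a further comparison, added after seeing the data. Of these candidates, 1121 of 1152 lay at unbound pairs. The comparison thus draws on largely the same promoters as that of bound and unbound pairs and is not independent of it. M1BP was again rarer at members (2.20% against 5.64%, odds ratio 0.377, adjusted exact p = 0.00887), as was GAGAG (odds ratio 0.546, adjusted exact p = 0.0113; 5.76% against 10.1%). TATAAA was more frequent (20.0% against 13.8%, odds ratio 1.56, adjusted exact p = 0.00887, Fisher's exact test, two-sided). Summits lay upstream of the nearest start at 79.8% of members and 51.7% of weak candidates. The windows thus sampled the parts of a promoter in different proportions, and the part of this in the differences was not tested. The DRE lay at 7.12% of members and 6.34% of weak candidates, and the BEAF-32 core at 29.8% and 31.3%, with adjusted exact p of 0.795 for both. With the 1553 strongest peaks the GAGAG call was lost (odds ratio 0.631, adjusted exact p = 0.261) and the BEAF-32 core was called as rarer at members (0.674, adjusted exact p = 0.0249); peaks of the lower part of the IDR set then count among the weak candidates. With windows of 25 bp M1BP and TATAAA were lost (adjusted exact p = 0.0731 each), with windows of 100 bp Ohler motif 7 was called (1.65, adjusted exact p = 0.00114), and without replicate 2 the DRE was (1.66, adjusted exact p = 0.0434).

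**Figure D5:**
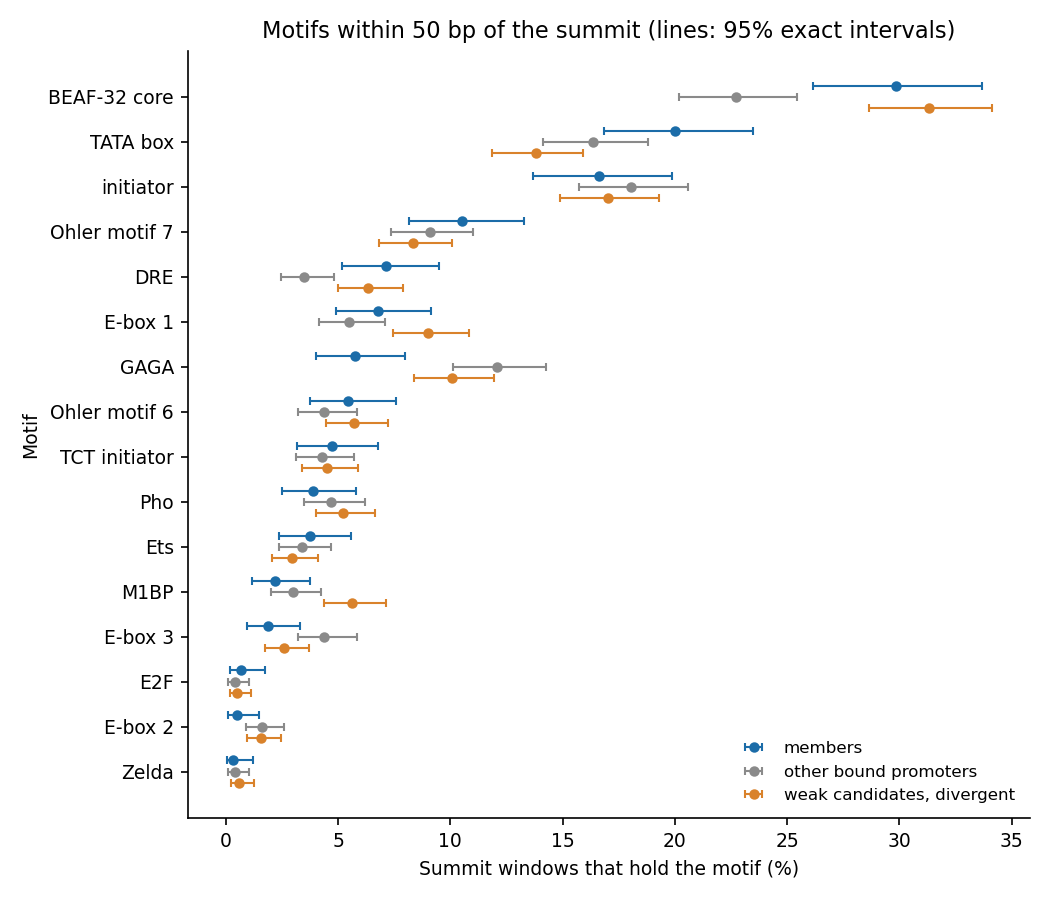
Share of 101 bp summit windows that hold each of 16 motifs (percent, horizontal) at nearest-start members (blue), other bound promoters (grey) and weak candidates at divergent promoters (orange), with 95% exact intervals; E-boxes 1, 2 and 3 have GC, CG and AT at their centre. The DRE lies at 7.12% of members, 3.49% of other bound promoters and 6.34% of weak candidates, and GAGA at 5.76%, 12.1% and 10.1%.

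Sequences of 8 bases were then compared without a preset list, in 3 comparisons of 32896 8-mers merged with their reverse complements. Between bound and unbound pairs at the midpoint none was called by Fisher's exact test (0% of 8-mers after adjustment). An unadjusted p under 0.05 was found for 1085, or 3.30% of those tested. Without replicate 3 AATTTAAT was called (89 bound and 87 unbound pairs, adjusted exact p = 0.0188), and with windows of 150 bp AGTGTTGC (37 bound and 24 unbound pairs, adjusted exact p = 0.0225). Between members and other bound promoters, in windows of 50 bp around the summit, none was called either, with 399 (1.21%) at an unadjusted p under 0.05. This comparison and the next were added after the first gave no call. Between members and weak candidates at divergent promoters, in summit windows whose place in the promoter differed as given above, 1 was called (0.00304%). It was GTTGGCAA, at 22 of 590 members (3.73%, 95% exact interval 2.35 to 5.59) and 4 of 1152 weak candidates (0.347%, 0.0947 to 0.887; two-sided Fisher's exact test, adjusted exact p = 0.00375).

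GTTGGCAA also lay outside divergent promoters, at 20 of 1003 other bound promoters (1.99%) and 14 of 1419 IDR peaks away from promoters (0.987%). At members 14 of its 22 copies were followed by C, as were 13 of 21 at other bound promoters, which gives GTTGGCAAC. Its reverse complement then begins with GTTGCCAA, the next 8-mer by p (22 members and 7 weak candidates, adjusted exact p = 0.0629). The copy lay at a median of 20.5 bp from the summit. Of the 22 carriers, 20 were among the 1553 strongest peaks, as were 336 of all 590 members. The median signal of the carriers was 373, against 154 for members without it. Other bound promoters had a like contrast (313 with it and 144 without), and IDR peaks away from promoters did not (143 and 141).

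The strongest carriers were eIF3b/Patronin (670.7), CG8569/CG8818 (669.1), Ilk/Trmt112 (649.2), Su(dx)/lectin-22C (622.4) and prd1/HisCl1 (614.8). Ilk encodes integrin-linked kinase, Su(dx) a ubiquitin ligase of Notch, and Patronin a protein of microtubule minus ends. COX5A/glo (587.5), mus101/Mrgn1 (560.3), CG11089/CG3744 (543.2) and botv/CG15117 (501.1) followed. The weakest were Su(z)12/Pfdn6, with a Polycomb group gene (153.0), CG8202/M1BP (114.5) and Tudor-SN/mRpL17 (103.8). With the sequence at 22 of 590, most members had no copy within 50 bp of the summit. The call was made again without replicate 2 (17 of the members so defined, 3.21%), without replicate 3 (3.20%), with the 1553 strongest peaks (5.95%) and with windows of 100 bp (4.41%), but no 8-mer was called with windows of 25 bp. GTTGGCAA was not always the only 8-mer called. Without replicate 2 GTTGCCAA and AATTAATC were called as well. With the 1553 strongest peaks GTTGCCAA, AAAAAAAT, CGCGTTGC, TTAAAAAA and AATGTAAT were called beside it.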

How the data were processed

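The authors deposited narrowPeak lists for 2 replicates, for pooled data (30000 candidates each) and for an IDR set, all made with a shared control, per the text deposited with them. The signal column holds the authors' peak score in the caller's units, and the summit offset is also the authors'. The aligner, caller and IDR threshold were not given in the sources used here, and depth is unknown. Only dm6 lists were used. Protein-coding starts came from Ensembl release 115 (BDGP6 version 54), and sequences from RefSeq's Release 6 genome. Signals served to rank and describe peaks.

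Shares have Clopper-Pearson 95% intervals, and odds ratios Woolf 95% intervals. Both cover counting error over positions only. Tests were two-sided Fisher's exact tests with Benjamini-Hochberg adjustment (threshold 0.05) over 6 single comparisons, 6 arms, 16 motifs or 32896 8-mers, in Python 3.11.15 with scipy, and a logistic model in statsmodels for the interaction. The 8-mer and motif procedures were tested on simulated windows. Members, lists and tests were chosen with earlier results of these data known. Named genes were the 25 strongest nearest-start members, up to 4 per gene list, the strongest of an arm or element, the closest and widest pairs and called 8-mers. A gene named by this rule is not reported here. The carriers of the 8-mer, hop and the 5 members listed with another start were named after their values were seen. Alternatives were the 1553 strongest peaks, each replicate's own 3106 strongest candidates (without the other replicate), and other windows and distances. Untagged embryos were not analysed here.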

Additional observations from a re-analysis of the deposited data

Results flagged for a closer look

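The share of promoters bound differed between divergent pairs and genes without a partner less on X than on the other arms. Pairs were bound at 15.8% on X, with genes without a partner at 9.45%, and the ratio of odds ratios of X over the other arms was 0.397 (95% interval 0.271 to 0.583, likelihood ratio test of the interaction over n = 1848 pairs and n = 10130 genes, p = 9.31e-07). It was 0.346 with the 1553 strongest peaks, 0.464 without replicate 2, 0.458 without replicate 3 and 0.385 without histone gene pairs. The test was chosen after the shares by arm were seen, and no explanation was tested.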

How the results depend on the processing

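Leaving out replicate 3 or replicate 2, each in turn, gave odds ratios of 0.624 to 0.946 for summits upstream of the nearest start and 1.01 to 1.54 for spacing. The same alternatives gave 1 to 2 called arms, 1 to 4 motifs between members and other bound promoters, 1 to 2 motifs and 0 to 1 8-mers between bound and unbound pairs, and 1 to 3 8-mers between members and weak candidates. With the 1553 strongest peaks there were 336 nearest-start members, 1 called arm, 0 motifs between members and other bound promoters and 6 8-mers between members and weak candidates. The odds ratio for spacing was then 1.15, and that for strong signal reversed to 0.793, without passing. The upstream odds ratio missed the threshold at 0.769 with a TSS window of 250 bp, 0.794 with partners up to 1000 bp and 0.786 with partners at any start; the motif count between members and other bound promoters was 1 with the window of 250 bp and 2 with partners up to 1000 bp. With sequence windows of 25 bp at summits and 50 bp at midpoints, 1 motif was called against other bound promoters, 2 against unbound pairs, and 1 motif and 0 8-mers against weak candidates. With windows of 100 and 150 bp, 7 motifs were called against other bound promoters and 1 8-mer against unbound pairs. Without histone genes the spacing odds ratio was 1.21 and 1 arm, X, was called. The causes were not tested.

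The share of pairs bound, the summit between both starts, the lower share on X and its interaction kept their direction and passed under every alternative run for them. No paired analysis was possible because both replicates belong to 1 group. Depth is unknown, so its part in the number of peaks cannot be given.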

Other observations

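At 28 of the 562 pairs of starts that held a nearest-start member there were 2 members. Their summits lay 199 to 285 bp apart, with a median of 204 bp, and 20 members shared their whole interval with another member. Sfmbt/CG5439 was such a pair, with 1 peak at 13176783 to 13176943 (signal 196.6) and 1 at 13177002 to 13177165 (160.4) on 2L. Cp190/CG4338 was another, with signals of 341.0 and 140.4 in 1 interval. Over all such pairs the distances between the 2 summits clustered, with quartiles of 200.75 and 209 bp. Peaks in these lists often had the same width, with a median of 404 bp at weak candidates. The part of the peak caller in the distances was not tested.

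Histone genes made up 45 of the divergent pairs, at spacings of 26 to 189 bp. Of these 1 was bound and 3 had any pooled candidate. They are near-identical repeated copies, in which the mapping of reads is uncertain.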
